A study of Mus musculus with 9 samples.

Results

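Clustered histone genes are the 70 genes of the deposited tables whose names begin with Hist1h, Hist2h, Hist3h or Hist4h, out of 47593 gene symbols. They were chosen by name alone, with no measured value. They comprise 6 genes of the linker histone H1 and 20 H2A, 19 H2B, 12 H3 and 13 H4 genes of the core histones, and their 76 transcripts were summed to 1 value per gene. By locus, 56 belong to the Hist1 cluster on chromosome 13, 10 to Hist2 on chromosome 3, 3 to Hist3 on chromosome 11 and 1 to Hist4 on chromosome 6. Of the 56 Hist1 genes, 54 could be placed on the annotation of GRCm38. All of these lie between positions 21715763 and 23934851 except the pseudogene Hist1h2al at 51202727 to 51203065.

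RNA bound to ribosomes was pulled down by RiboTag immunoprecipitation from neurons of the medial prefrontal cortex of adult C57BL/6 mice and sequenced from stranded total RNA libraries. There were 3 libraries in each of 3 groups: control mice with GFP overexpressed in this region during sleep, the same control during enforced wake, and mice with a GFP-Fxr1 fusion overexpressed there during enforced wake. The labels do not name the driver of the tagged ribosomes or of the overexpressed proteins, and they do not say whether replicates came from separate animals, so all p-values measure only the spread between these libraries, which may be technical. In bulk samples, fewer cells of a type and less RNA per cell cannot be told apart.

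Histones package DNA: paired copies of H2A, H2B, H3 and H4 form the core of a nucleosome, and H1 binds the DNA between cores. Most clustered genes are expressed with DNA replication, and their mRNAs end in a conserved stem-loop, bound by the protein SLBP, in place of a poly(A) tail. Neurons no longer divide, and much of their histone exchange uses separate variants such as H3.3 and H2A.Z, whose genes lie outside the clusters and give polyadenylated mRNA. A total RNA library can record both kinds.

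The stem-loop was searched for in the annotated transcripts, since it sets these mRNAs apart. It was found in 44 of the 70 genes (62.9%) and in 25 of the 141690 transcripts of all other genes (0.0176%). By class it was found in 4 of 6 H1, 11 of 20 H2A, 8 of 19 H2B, 9 of 12 H3 and 12 of 13 H4 genes, on the transcript strand. A transcript without a match says only that these letters are not in its annotated sequence. The examples below are written 5′ to 3′, with the stem-loop in capitals and up to 5 flanking bases.
Hist1h1e: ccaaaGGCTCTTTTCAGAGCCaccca
Hist1h2ab: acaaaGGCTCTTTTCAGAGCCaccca
Hist1h2bg: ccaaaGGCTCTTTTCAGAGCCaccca
Hist1h3f: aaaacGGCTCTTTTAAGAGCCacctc
Hist1h4c: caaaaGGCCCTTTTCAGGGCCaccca
Hist1h4d: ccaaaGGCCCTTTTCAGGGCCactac
Hist2h4: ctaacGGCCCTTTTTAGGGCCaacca
The form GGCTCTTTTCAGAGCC was carried by 3 H1, 10 H2A, 6 H2B and 5 H3 genes. No H4 gene carried it: 7 H4 genes had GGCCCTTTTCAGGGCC, 2 had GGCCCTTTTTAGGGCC, 2 had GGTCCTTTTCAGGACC and 1 had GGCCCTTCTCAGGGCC. In Hist1h4c and Hist1h4d, the most abundant H4 genes, the annotated transcript runs on for 454 and 770 bases after the loop.

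The copies of a class resemble each other, which limits how far a read can be given to 1 gene. The 13 H4 genes each have 312 coding bases, and those of the other 12 were 87.2% to 94.2% identical to Hist1h4d. The first 90 coding bases of 5 H4 genes are shown to make this visible, with bases that differ from Hist1h4d in capitals.
Hist1h4d: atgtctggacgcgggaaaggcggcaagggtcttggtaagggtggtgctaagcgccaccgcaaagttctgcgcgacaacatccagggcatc
Hist1h4c: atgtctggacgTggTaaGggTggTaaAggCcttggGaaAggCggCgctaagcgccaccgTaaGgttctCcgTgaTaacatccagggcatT
Hist1h4m: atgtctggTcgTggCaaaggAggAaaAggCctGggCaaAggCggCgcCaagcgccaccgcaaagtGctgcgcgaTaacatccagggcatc
Hist1h4n: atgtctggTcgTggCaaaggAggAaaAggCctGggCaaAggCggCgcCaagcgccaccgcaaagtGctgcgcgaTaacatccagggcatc
Hist4h4: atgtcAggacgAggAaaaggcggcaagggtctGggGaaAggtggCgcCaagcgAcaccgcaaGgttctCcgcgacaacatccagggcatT
Hist1h4c differs from Hist1h4d at 17 of these 90 bases and Hist4h4 at 12, while the stretches of Hist1h4m and Hist1h4n both differ at the same 15. A sequence window of 50 bases was used to count sharing over whole transcripts. Such windows were found in another clustered histone gene for a median of 1.1% of a gene's windows in H1, 73.2% in H2A, 49.7% in H2B, 57.2% in H3 and 39.5% in H4. At least 20% of windows were found in another clustered histone gene for 55 of the 70 genes. Hist2h2aa2, Hist1h2bh and Hist1h2bm had 100% of their windows in other histone genes, and 6 genes, Hist4h4 among them, had 0%. The annotation used lists the transcripts of Hist1h2bh and Hist1h2bm under Hist1h2bq and Hist1h2br. Their 100% may therefore be sharing within 1 annotated gene.

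Promoters are shown because the classes differ in the letters found there. The RefSeq table (GRCm38.p6) held 60 of the 70 genes, and 250 bases before the start were searched on both strands. The letters CCAAT, which read as ATTGG when they stand on the other strand, were found in 49 of the 60 (81.7%), against 33.8% of all 32851 windows of the same length. They were present in 6 of 6 H1, 18 of 18 H2A, 14 of 14 H2B and 8 of 10 H3 promoters, but in 3 of 12 H4 promoters. TATAAA was found in 29 of the 60 (48.3%), against 12.4% of all windows, and in 6 of 12 H4 promoters. The 120 bases nearest the start are given for an H2B gene and for a pair of H4 genes, with these letters in capitals. Hist1h2bg has 2 CCAAT matches in its 250 bases, but neither lies within the 120 bases shown. Hist1h4d is among the 3 H4 promoters with a match, and Hist4h4 has 0. The windows are chr13:23571280-23571399 on the plus strand, chr13:23581448-23581567 on the plus strand and chr6:136804432-136804551 on the minus strand.
Hist1h2bg: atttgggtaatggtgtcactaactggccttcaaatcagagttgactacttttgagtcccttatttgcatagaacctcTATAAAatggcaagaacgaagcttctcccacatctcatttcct
Hist1h4d: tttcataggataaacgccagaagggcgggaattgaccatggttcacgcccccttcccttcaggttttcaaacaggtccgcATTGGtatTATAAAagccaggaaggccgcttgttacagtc
Hist4h4: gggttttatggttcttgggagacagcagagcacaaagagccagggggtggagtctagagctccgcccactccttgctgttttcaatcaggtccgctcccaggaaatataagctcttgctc

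The libraries held an estimated 2.99e7 to 3.73e7 fragments. Fxr1 itself had 31.0 to 34.8 FPKM (fragment counts corrected for transcript length and library size) in the 6 control libraries and 91.1, 67.7 and 71.8 in the 3 Fxr1 libraries. The summed level of 9 neuronal marker genes was 4081 to 4245 FPKM in sleep. It was 3812 to 3968 FPKM in wake, below all other libraries, and 3974 to 4134 with Fxr1. The libraries differed in how values followed base composition: across 11516 protein-coding genes, deviations from the mean of all libraries had a Spearman correlation with GC content of 0.65, 0.70 and 0.74 in the wake libraries, -0.81, -0.42 and -0.26 in the Fxr1 libraries, and 0.25, -0.39 and 0.17 in the sleep libraries. The histone genes had a median GC content of 58.9% and a median transcript of 532 bases, against 49.5% and 3439 bases for those genes. Results are therefore given with and without removal of the GC and length trend. Only 16 of the 11516 genes were both as GC-rich and as short as the histone medians, so the removed trend rests on few genes of this kind. Fxr1 library 1 had the strongest GC trend and the lowest value of all 9 libraries for 52 of the 70 histone genes.

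Histone mRNA was measurable in these ribosome pull-downs at a low share. In the sleep libraries the 70 genes together took between 0.085% and 0.107% of all FPKM. This share was between 0.147% and 0.150% in the wake libraries, and between 0.040% and 0.080% in the Fxr1 libraries. Their sum was 331 ± 43.3 FPKM in the sleep group, 529 ± 9.22 in enforced wake and 209 ± 73.9 with Fxr1 (mean ± SD, n = 3 each). Of the 70 genes, 51 had a mean of at least 0.5 FPKM over the 9 libraries, 16 had at least 5, and Hist1h1t, the testis H1, and Hist1h2aa were listed at 0 in every library. The most abundant was Hist2h2bb, an H2B gene, with 79.7 ± 7.91 FPKM in sleep, followed by Hist1h1e, Hist1h4d and Hist1h4c.

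The wake libraries had the highest mean total in every class, by a ratio to sleep that ranged from 1.15 to 2.60. H4 genes summed to 102, 67.6 and 95.1 FPKM in the sleep libraries, 218, 225 and 219.8 in wake, and 13.7, 57.5 and 71.2 with Fxr1. All 3 wake libraries lay far above the others, and Fxr1 library 1 far below. H3 genes summed to 15.2, 8.38 and 12.5 FPKM in sleep, 32.4, 31.7 and 29.9 in wake, and 4.77, 9.74 and 14.7 with Fxr1. H1 genes summed to 68.9, 59.3 and 70.5 FPKM in sleep, 79.5, 73.0 and 75.5 in wake, and 26.1, 49.3 and 46.8 with Fxr1, so that sleep and wake lay close together. The ratio of the wake mean to the sleep mean was 2.51 for H4, 2.60 for H3, 1.55 for H2A, 1.17 for H2B and 1.15 for H1. Hist2h2bb made up much of the H2B sum, and without it the H2B ratio was 1.44. Hist3h2a made up much of the H2A sum, and without it the H2A ratio was 1.83. The ratio of the Fxr1 mean to the wake mean was 0.215 for H4, 0.311 for H3, 0.515 for H2A, 0.564 for H2B and 0.536 for H1. It was 0.270 for H2A without Hist3h2a and 0.493 for H2B without Hist2h2bb. Over Fxr1 libraries 2 and 3 alone the H4 ratio was 0.291. These ratios are descriptions, and the classes were not tested against each other.

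**Figure D1:**
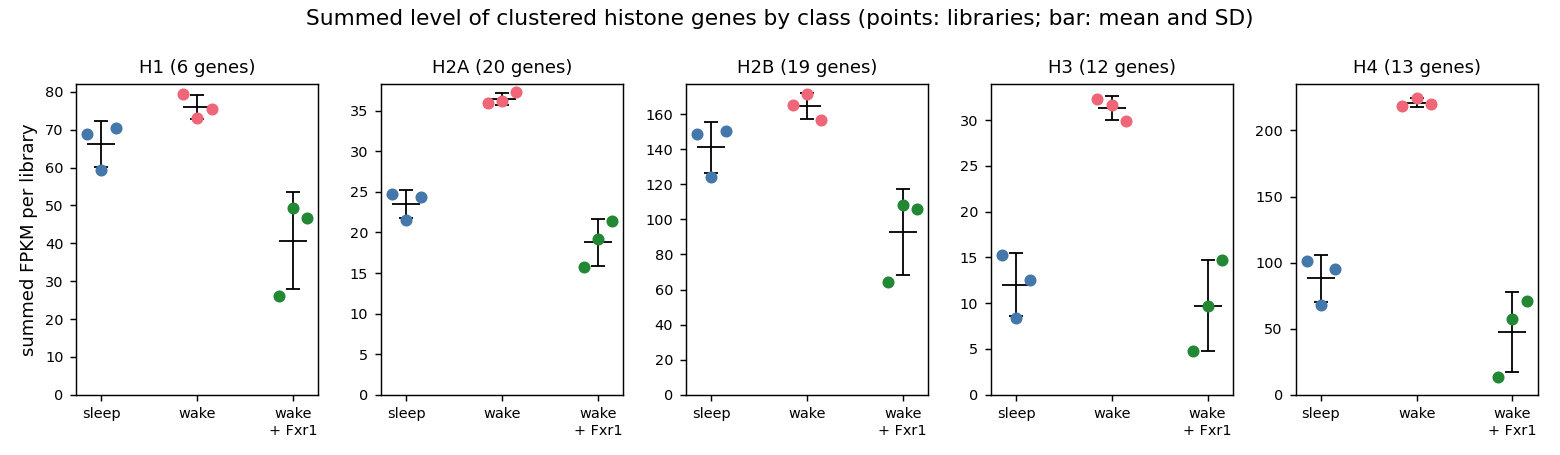
Summed FPKM of the clustered histone genes of each class in each library, with 1 panel per class and a linear axis from 0. Points are libraries, and the bar gives the mean and SD of 3 libraries. The 3 wake points of H4 sit at 218 to 225 FPKM, above all sleep points (67.6 to 102) and all Fxr1 points (13.7 to 71.2).

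Enforced wake was compared with sleep in the GFP control mice to ask which genes differ with state. H4 and H3 genes rose together in wake, while the H1 genes split. In the limma fit over all genes, 55 of the 70 histone genes passed the filter of a mean of 0.5 FPKM. Of these, 43 rose, 1 fell and 11 did not pass at an adjusted p of 0.05. Over all 14673 genes tested, 15.7% rose and 12.7% fell (28.3% called). The median difference of the 55 was 0.72 on the log2(FPKM + 1) scale, against 0.00 over all genes. In 45 of the 55 every wake library lay above every sleep library, where the share over all genes was 25.8%. The 55 include genes, such as Hist1h3b, that met the filter only through the wake libraries, so these counts depend in part on the filter.

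All 13 H4 genes rose, with differences from 0.33 to 1.39. Hist1h4d (ENSMUSG00000061482, chromosome 13, 23581598 to 23582735, 1 exon) encodes histone H4 and had 25.6, 15.4 and 23.9 FPKM in sleep and 47.6, 46.7 and 47.2 in wake. The wake values lay within 1 FPKM of each other and all above sleep. It rose by 1.12 (SE 0.18, limma adjusted p = 0.0079). Hist1h4c (ENSMUSG00000060678, 23697635 to 23698454) had 23.2, 17.2 and 19.6 FPKM in sleep and 45.1, 47.3 and 46.6 in wake, and rose by 1.18 (SE 0.10, limma adjusted p = 0.0017). In each of these genes the groups did not overlap. Hist1h4a, the H4 gene with the smallest limma p, had 3.19, 2.69 and 3.04 FPKM in sleep and 8.87, 8.51 and 9.31 in wake, and rose by 1.32 (SE 0.08). The genes outside the Hist1 cluster changed least: Hist2h4 rose by 0.58 (SE 0.06) and Hist4h4 by 0.33 (SE 0.09). Hist4h4 is also the H4 gene with the lowest level, 0.577, 0.510 and 0.819 FPKM in sleep and 1.04, 1.11 and 0.997 in wake, where the added pseudocount of 1 shrinks a difference.

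**Figure D2:**
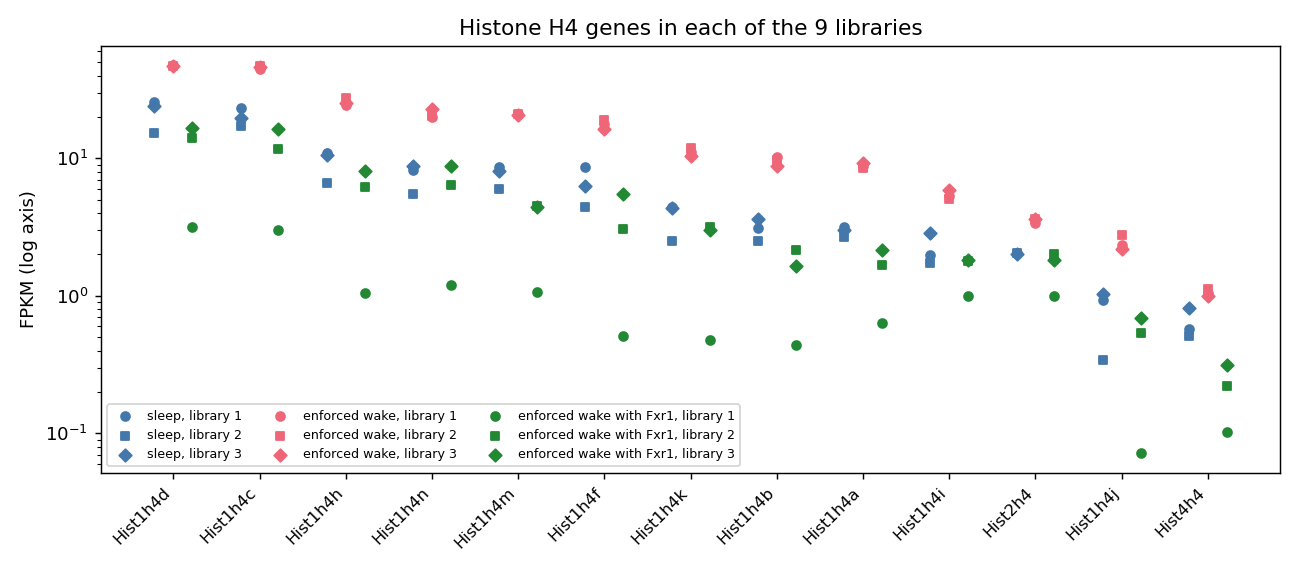
FPKM of the 13 H4 genes, ordered by mean level, in each of the 9 libraries on a log axis. Colours are groups and symbols are library numbers. In all 13 genes the 3 wake points lie above the other 6, and Fxr1 library 1 is the lowest point.

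With the GC and length trend removed, all 13 H4 genes still rose, and their median difference was 0.89 instead of 1.32. Hist1h4c and Hist1h4d, with annotated transcripts of 820 and 1138 bases, had differences of 1.22 and 1.20 after it, against 1.18 and 1.12 before. Hist1h4k, whose annotated transcript is 312 bases, went from 1.37 to 0.58.

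All 12 H3 genes rose in wake, by 0.48 to 1.26. In Hist1h3b, Hist1h3c, Hist2h3b and Hist2h3c1 every sleep library was under 0.5 FPKM. These genes met the filter of a mean of 0.5 FPKM only through the wake libraries, so the count of 12 of 12 depends in part on the filter. Hist1h3i, an H3 gene (chromosome 13, 21782960 to 21783370), had 3.02, 1.79 and 2.37 FPKM in sleep and 7.11, 6.47 and 7.64 in wake, a rise of 1.26 (SE 0.14, limma adjusted p = 0.0031). Hist1h3f had 1.75, 1.10 and 1.72 FPKM in sleep and 3.86, 3.58 and 3.57 in wake, a rise of 0.90 (SE 0.12). In both genes the groups did not overlap. Hist2h3c1, a Hist2 gene, was listed at 0.111, 0 and 0 FPKM in sleep and had 1.45, 1.35 and 0.471 in wake, and it overlaps the annotated gene Gm20634 on the same strand. After removal of the GC and length trend, 5 of the 12 passed (Hist1h3d, Hist1h3e, Hist1h3f, Hist1h3i and Hist2h3c1), and the median went from 0.72 to 0.36.

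Among the 16 H2B genes tested, 11 rose, 1 fell and 4 did not pass. Hist1h2bg had 4.29, 2.86 and 4.33 FPKM in sleep and 8.72, 8.20 and 8.25 in wake, a rise of 0.98 (SE 0.13, limma adjusted p = 0.0055). Hist1h2bc had 17.3, 18.0 and 17.8 FPKM in sleep and 24.8, 26.0 and 24.6 in wake, a rise of 0.48 (SE 0.05). Wake and sleep values were fully apart in both. Hist2h2bb, the most abundant histone gene, did not follow: it had 83.5, 70.6 and 84.9 FPKM in sleep and 76.6, 80.4 and 70.8 in wake, a difference of -0.06 (SE 0.09, limma adjusted p = 0.61). Its symbol joins a 381-base coding transcript and a much lower transcript annotated as non-coding. Hist3h2bb-ps, an H2B pseudogene, fell by 0.74 (SE 0.11), from 6.74, 5.62 and 6.74 FPKM to 3.60, 3.72 and 2.90. With the trend removed, 4 H2B genes rose (Hist1h2bc, Hist1h2be, Hist1h2bg and Hist1h2bk) and 2 fell (Hist3h2ba and Hist3h2bb-ps).

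Of 9 H2A genes tested, 5 rose. Hist3h2a, the most abundant of them, had 12.9, 13.2 and 14.1 FPKM in sleep and 18.4, 16.8 and 18.4 in wake, a rise of 0.39 (SE 0.07, limma adjusted p = 0.0095). The other 4 were Hist2h2aa1, Hist2h2aa2, Hist2h2ac and Hist1h2al. The first pair share 89.2% and 100% of their windows with other histone genes, and Hist1h2al is annotated as a processed pseudogene. After removal of the trend Hist3h2a alone rose, by 0.53, and Hist2h2ab fell by 1.0. Hist3h2a overlaps Trim17 on the same strand in the annotation, and reads of the pair cannot be told apart. All 20 H2A genes, and 3 others (Hist1h4b, Hist2h2bb and Hist2h3b), overlap an annotated gene on the opposite strand. The kit marks strand, but whether the authors' quantification used it was not stated, so these pairs may share reads. The remaining 11 H2A genes were under the filter.

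The linker histones split. Hist1h1d rose by 0.73 (SE 0.11, limma adjusted p = 0.0065), from 11.1, 8.15 and 10.3 FPKM in sleep to 17.0, 17.1 and 16.8 in wake. Its annotated transcript is 7425 bases and runs on for 4884 bases after the stem-loop. Reads from beyond the loop can therefore count towards its FPKM, and their part in the rise was not tested. Hist1h1b rose by 0.65 (SE 0.09) from a lower level. Both passed with the trend removed. Hist1h1e, the most abundant H1 gene, had 31.7, 30.3 and 34.0 FPKM in sleep and 34.4, 31.3 and 32.9 in wake, with overlapping groups and a difference of 0.04 (SE 0.07, limma adjusted p = 0.70). Hist1h1c differed by 0.14 (SE 0.10) and Hist1h1a by -0.14 (SE 0.12), and neither passed.

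**Figure D3:**
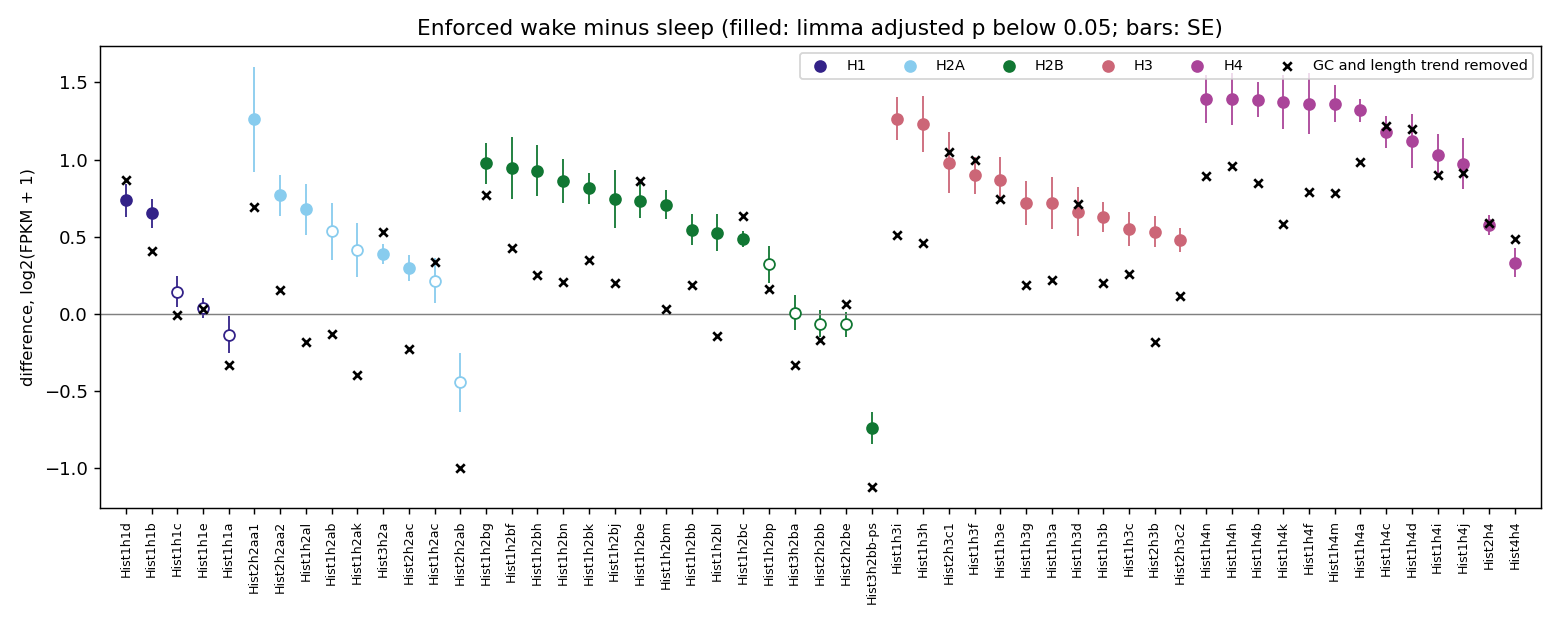
Difference between enforced wake and sleep of the 55 histone genes tested, on the log2(FPKM + 1) scale, by class. Circles are estimates with their SE, filled where the limma adjusted p is below 0.05, and crosses are the estimates with the GC and length trend removed. The 13 H4 genes lie above 0 by both estimates, while many H2A and H2B crosses lie near 0.

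Over all classes, removal of the trend left 25 of the 55 genes higher and 3 lower, against 10.4% and 13.4% of all genes in that fit. Of the 44 genes called, 26 were called in the same direction by both fits, and 4 that had risen turned negative: Hist1h2al (-0.19), Hist1h2bl (-0.15), Hist2h2ac (-0.23) and Hist2h3b (-0.19). A genuine change that follows GC content would be removed as well.

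Since copies share reads, genes linked by at least 20% shared windows were also summed, which gave 16 tested sums, 11 of which rose. The sum of 10 Hist1 H4 genes rose by 1.41 (SE 0.14), the sum of 9 Hist1 H3 genes by 1.3 (SE 0.20), the sum of 18 H2A genes by 0.82 (SE 0.12) and the sum of 15 H2B genes with Hist1h1e by 0.51 (SE 0.07). Hist1h1e joins the H2B sum because its exon overlaps a Hist1h2be transcript. Of the 8 tested genes with under 5% of windows in another histone gene, 5 rose, with a median of 0.36 (0.45 with the trend removed). The 42 tested genes with at least 20% had a median of 0.75 (0.25 with the trend removed). Across the 55 genes, which share libraries and base composition, the Spearman correlation of the difference with shared windows was 0.48, and -0.053 with the trend removed. The part of shared reads in the difference was not tested.

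**Figure D4:**
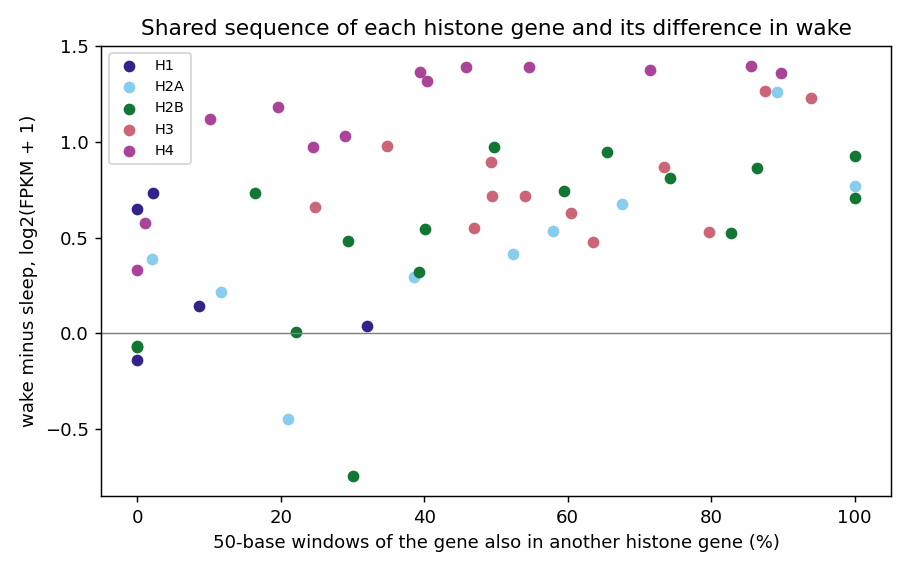
Difference between wake and sleep on the log2(FPKM + 1) scale (vertical) against the percent of a gene's 50-base windows found in another clustered histone gene (horizontal), for the 55 genes tested. Each point is a gene, coloured by class. H4 genes lie between 0.33 and 1.39 over a range of shared windows from 0% to 89.8%.

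Fxr1 overexpression was compared with GFP within enforced wake. Of the 53 histone genes tested, 2 had a positive difference from wake and the others a negative one, and 16 were positive with the GC and length trend removed. The spread among the Fxr1 libraries was wide, and few genes passed. Of the 53, none rose, 7 fell and 46 did not pass, where 0.412% of the 14563 genes tested were called, 0.0824% higher and 0.33% lower. At an unadjusted limma p below 0.05, 48 of the 53 were lower and none was higher, where 25.4% of all genes were lower and 12.9% higher. The 7 were the linker gene Hist1h1c, the H3 genes Hist1h3b and Hist1h3c, and the H4 genes Hist1h4a, Hist1h4b, Hist1h4i and Hist4h4. Every Fxr1 library lay below every wake library in 50 of the 53, where the share over all genes was 32.3%. The 53 include genes that met the filter only through the wake libraries, such as Hist1h2bl and Hist2h2ac. In both, every Fxr1 library was under 0.5 FPKM, so the counts over the 53 depend in part on the filter. The median difference was -1.02, against -0.06 over all genes, and it was -2.06 for the 13 H4 genes. This comparison and that of wake with sleep share the 3 wake libraries, so they are not independent of each other. No histone gene passed without wake library 1, 2 or 3 or without Fxr1 library 2, and none with a replicate block, so each of the 7 calls is lost when any of these is applied.

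Hist1h4a had 8.87, 8.51 and 9.31 FPKM in wake and 0.638, 1.69 and 2.15 with Fxr1, and fell by 2.04 (SE 0.24, limma adjusted p = 0.037). Hist1h4b had 10.3, 9.79 and 8.87 FPKM in wake and 0.441, 2.16 and 1.65 with Fxr1, and fell by 2.21 (SE 0.28, limma adjusted p = 0.045). In both, every Fxr1 library lay far below every wake library. The more abundant H4 genes differed as much with a wider spread: Hist1h4c had 3.0, 11.8 and 16.3 FPKM with Fxr1, a difference from wake of -2.30 (SE 0.51, limma adjusted p = 0.088). Hist1h4d had 3.18, 14.0 and 16.6 FPKM with Fxr1, a difference of -2.22 (SE 0.52, limma adjusted p = 0.088). Library 1 was the lowest Fxr1 library in all of these genes.

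Hist1h1c, a linker histone gene, had 11.2, 10.6 and 11.2 FPKM in wake and 4.11, 6.03 and 4.96 with Fxr1, and fell by 1.0 (SE 0.13, limma adjusted p = 0.048). Hist1h1e had 13.3, 24.1 and 21.6 FPKM with Fxr1, a difference of -0.75 (SE 0.21) that did not pass. Hist1h3b and Hist1h3c were near 1 FPKM in wake and fell by 0.83 (SE 0.08) and 0.78 (SE 0.10). With Fxr1, Hist1h3b had 0.090, 0.107 and 0.189 FPKM and Hist1h3c 0.042, 0.070 and 0.222. Hist4h4 had 0.102, 0.219 and 0.317 FPKM with Fxr1. Hist1h3b, Hist1h3c and Hist4h4 met the filter of a mean of 0.5 FPKM only through the wake libraries, so whether they were tested depended on their level in wake. Hist2h2bb had 31.3, 57.8 and 58.2 FPKM with Fxr1, a difference of -0.67 (SE 0.24) that did not pass. Hist2h2be, an H2B gene with an annotated transcript of 2620 bases, and Hist2h3c1 were the only genes tested with a positive difference, 0.15 (SE 0.09) and 0.24 (SE 0.22), and neither passed.

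Without Fxr1 library 1, by contrast, 47 of 56 tested genes fell, while 17.1% of all genes fell in that fit. Genes that met the filter only through the wake libraries are again among the 56. The genes that fell were 4 of 5 H1, 7 of 10 H2A, 14 of 16 H2B, 9 of 12 H3 and 13 of 13 H4 genes, and the H4 median was -1.57. Hist1h4d then fell by 1.57 (SE 0.08, limma adjusted p = 0.0021) and Hist1h4m by 2.01 (SE 0.06, limma adjusted p = 0.00057).

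Removal of the GC and length trend over all 6 libraries left 4 genes that fell, all H4 genes (Hist1h4a, Hist1h4b, Hist1h4i and Hist1h4m), where 0.186% of all genes fell. The H4 median was then -1.19 and that of the 53 genes -0.34. Fxr1 libraries lay below wake libraries without overlap in 29 of the 53 genes in place of 50, where 13.5% of all genes did, and the 29 included all 13 H4 genes. In 2 of the 53 genes Fxr1 libraries lay above wake libraries without overlap, where 2949 of 14535 genes did. The H2A median was 0.26, with 5 of 8 H2A genes positive, and 1 lower and 1 higher without overlap. With library 1 left out and the trend removed, 19 of 56 genes fell, where 1.19% of all genes did. They were 11 of 13 H4 genes, 3 H1 genes (Hist1h1c, Hist1h1d and Hist1h1e), 2 H2B genes (Hist1h2bc and Hist1h2bg), 2 H3 genes (Hist1h3e and Hist1h3f) and Hist3h2a. The H4 median was then -1.09 and that of H2A 0.07.

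**Figure D5:**
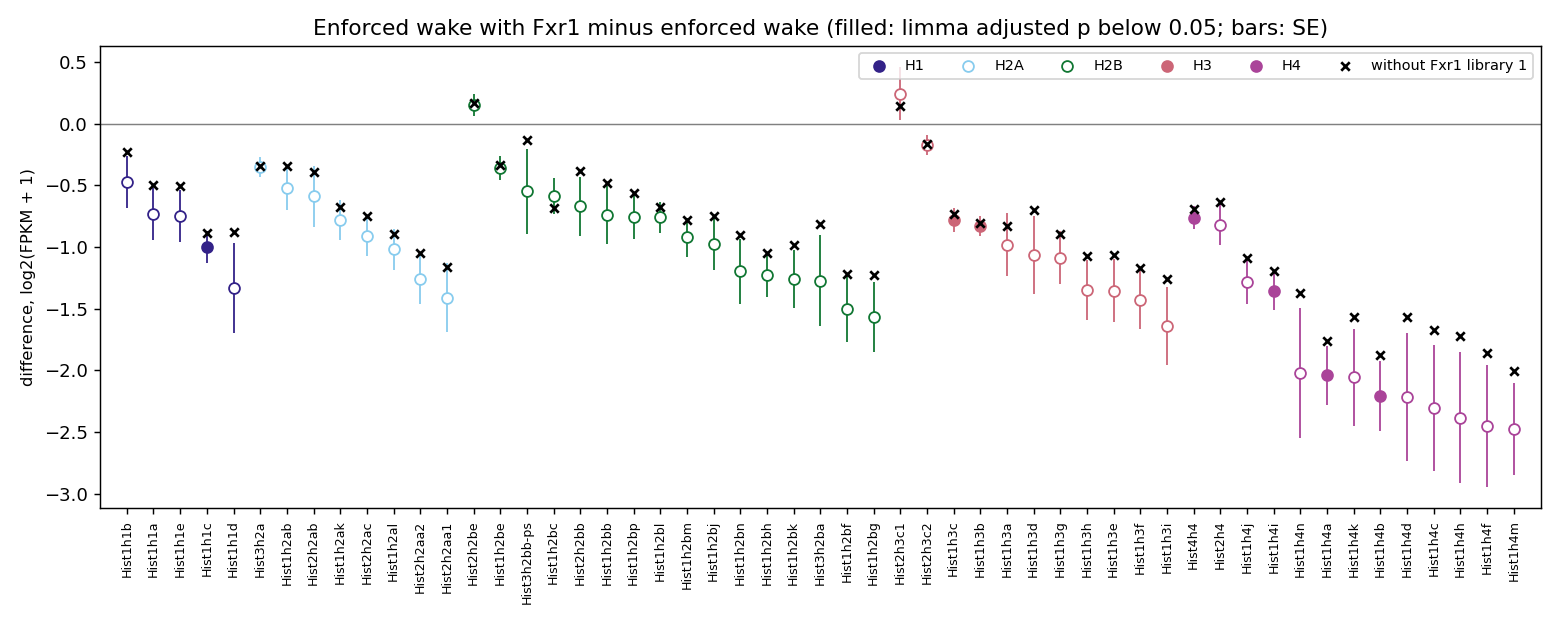
Difference between enforced wake with Fxr1 and enforced wake with GFP of the 53 histone genes tested, on the log2(FPKM + 1) scale, by class. Circles are estimates with their SE, filled where the limma adjusted p is below 0.05, and crosses are the estimates without Fxr1 library 1. H4 genes reach -2.47, and their crosses lie between -2.01 and -0.64.

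The wake mice with Fxr1 were then set beside the sleep controls, which differ in both state and overexpressed protein. Most histone genes did not pass. Of 51 tested, 2 rose and 6 fell, where 7.79% of 14617 genes were called, 3.2% higher and 4.58% lower. These 8 calls became 0 without sleep library 3, 1 without sleep library 1, 2 without sleep library 2, 2 or 3 without 1 wake library, and 3 with a replicate block. Hist2h3c1 rose by 1.22 (SE 0.19, limma adjusted p = 0.011) and Hist2h3c2 by 0.30 (SE 0.08, limma adjusted p = 0.047). Both are H3 genes of the Hist2 cluster. Hist2h3c1 was listed at 0.111, 0 and 0 FPKM in sleep and had 1.77, 1.24 and 1.27 with Fxr1. It met the filter only through the wake and Fxr1 libraries, and it overlaps the annotated gene Gm20634 on the same strand. Hist2h3c2 had 0.406, 0.597 and 0.504 FPKM in sleep, 1.14, 1.09 and 1.03 in wake and 0.832, 0.913 and 0.807 with Fxr1, so that its Fxr1 values lay between the other groups. Hist1h1c fell by 0.86 (SE 0.13, limma adjusted p = 0.012) and Hist1h1a, another H1 gene, by 0.87 (SE 0.20, limma adjusted p = 0.036). Hist2h2ab, Hist2h2ac, Hist3h2bb-ps and Hist4h4 also fell. Of the 13 H4 genes, Hist4h4 alone passed, and the H4 median was -0.72. In 6 of the 13 all Fxr1 libraries lay below all sleep libraries, where 21.2% of all genes did, and in 7 the groups overlapped. With the trend removed over all 9 libraries, 3 of the 51 rose and 8 fell, where 1046 and 819 of 14589 genes did. The H4 median was then -0.34. With Fxr1 library 1 left out and the trend removed, the H4 median was -0.28, and of 53 histone genes 2 rose and 7 fell, where 6.17% and 5.19% of all genes did.

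Other genes of histone biology were read out from the same fits. Of 21 tested genes that process or decay histone mRNA, 5 rose and 3 fell in wake, where 15.7% and 12.7% of all genes did. With the trend removed 6 rose and none fell, where 10.4% and 13.4% of all genes did. Lsm11, a subunit of the U7 particle that cuts the mRNA after the stem-loop, rose by 0.78 (SE 0.06), from 6.01 ± 0.276 to 11.0 ± 0.290 FPKM (n = 3 each). Upf1, a helicase of mRNA decay, rose by 0.74 (SE 0.11), and Snrpb, a core protein of small nuclear particles, by 0.44 (SE 0.06). Slbp, which binds the stem-loop, had 12.7 ± 1.78 FPKM in sleep and 9.61 ± 0.713 in wake and fell by 0.37 (SE 0.11, limma adjusted p = 0.043), a call lost with the trend removed (limma adjusted p = 0.092). With Fxr1 none of the 21 passed in limma, and with the trend removed 1 fell, where 0.186% of all genes fell. At an unadjusted limma p below 0.05 there were 10, 6 higher and 4 lower, where 12.9% of all genes were higher and 25.4% lower.

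Of 11 replication-independent histone variants tested, 3 rose and 1 fell in wake, with a median of 0.17, and 3 rose and 2 fell with the trend removed. The shares over all genes were 15.7% and 12.7%, and 10.4% and 13.4% with the trend removed. The variants were not tested against the clustered genes. H3f3b, an H3.3 gene, had 88.6 ± 4.26 FPKM in sleep and 89.5 ± 3.40 in wake, a difference of 0.01 (SE 0.06). H3f3a differed by -0.11 (SE 0.11) and the H2A.Z gene H2afz by 0.04 (SE 0.09). With the trend removed H3f3b differed by 0.19 (limma adjusted p = 0.017). In the fit without that removal H2afv rose by 0.35 (SE 0.06), H2afj by 0.60 (SE 0.11) and H1fx by 0.61 (SE 0.14), a call that was lost for H1fx with the trend removed (-0.05), and the linker variant H1f0 fell by 0.26 (SE 0.06). With Fxr1 none of the 11 passed in limma, and their median was -0.28, against -0.06 over all genes. At an unadjusted limma p below 0.05, 4 were lower and 0 higher, where 25.4% of all genes were lower and 12.9% higher.

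Of 11 S-phase genes tested none rose in wake in limma, and at an unadjusted p below 0.05 none was higher and 6 were lower. The 4 that fell included Ccne2, with a difference of -0.55 (SE 0.11), Rrm1 with -0.33 (SE 0.08) and Pcna with -0.22 (SE 0.06). With the trend removed 2 fell, Ccne2 and Ccne1. Histone chaperones showed 2 higher and 8 lower of 23, and the writers and erasers of histone marks 8 higher and 2 lower of 20, including Kdm6b at 0.79 (SE 0.10) and Hdac5 at 0.62 (SE 0.09). With the trend removed the chaperones had 1 higher and 5 lower and the writers and erasers 3 higher and 2 lower, and Kdm6b (0.35) and Hdac5 (0.19) no longer passed. For comparison, 15.7% of all genes rose and 12.7% fell in wake, and 10.4% and 13.4% with the trend removed. In the Fxr1 comparison no gene of these 3 lists passed in limma, where 2, 8 and 12 genes had an unadjusted limma p below 0.05. Of these, 1 S-phase gene was higher and 1 lower, 7 chaperones were higher and 1 lower, and 2 writers and erasers were higher and 10 lower. The shares over all genes were 12.9% higher and 25.4% lower.

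Markers of other cells were measured beside the histone genes. In wake against sleep, 1 of 8 astrocyte markers fell (Sox9), 1 of 7 oligodendrocyte markers rose and 1 fell (Mbp with a difference of 0.92 and Opalin with -0.86), 1 of 5 markers of oligodendrocyte precursors rose (Gpr17), 1 of 7 microglial markers rose (Tmem119), 1 of 7 endothelial and mural markers fell (Kdr), and none of 5 blood genes passed in limma, with or without adjustment. With the trend removed the calls of Gpr17 and Tmem119 were lost, and Olig2, a precursor marker, and Pdgfrb, a mural marker, were lower. Of the 9 neuronal markers, 2 rose and 2 fell in wake, and 1 rose and 1 fell with the trend removed. Among all genes 15.7% rose and 12.7% fell in wake, and 10.4% and 13.4% with the trend removed. The summed FPKM overlapped between sleep and wake in astrocytes (358 to 409 and 379 to 443 FPKM), oligodendrocytes, microglia, vascular cells and blood, while precursors had 8.09 to 8.50 in sleep and 9.07 to 11.7 in wake. With Fxr1 the astrocyte sum was 312 to 362 FPKM, below all wake libraries, and Gfap fell by 1.62 (SE 0.14, limma adjusted p = 0.025). Oligodendrocyte, precursor and microglial sums with Fxr1 also lay below wake without overlap. They were 119 to 132 against 135 to 157, 6.81 to 8.31 against 9.07 to 11.7, and 27.8 to 29.3 against 30.2 to 33.2 FPKM. The vascular and blood sums overlapped. Of all genes tested, 32.3% lay below wake without overlap. Median differences from wake were -0.17 for oligodendrocyte, -0.34 for precursor and -0.12 for microglial markers, and none of these genes passed. With the trend removed these medians were 0.04, 0.18 and 0.05, and again none passed. The astrocyte median was -0.32, and -0.51 with the trend removed. No marker gene was at 0 in all libraries, and the part of other cells in the histone results was not tested.

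In the authors' deposited table for sleep and wake, 43 of 70 histone transcripts with a p-value had one below 0.05, and the smallest q-value was 0.279. In the authors' deposited table for Fxr1, 24 of 74 had a p-value below 0.05, and the smallest q-value was 0.207. No histone transcript passed a q-value of 0.05 in either.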

How the data were processed

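The 9 libraries were analysed as 3 groups of 3 given by the labels. The authors deposited FPKM per transcript for each library in 2 tables, per the file headers, together with their own fold change (a ratio), p-value and q-value. The submitters' processing notes name GRCm38, HISAT2 2.1.0, SAMtools 1.9 and StringTie 1.3.4d. The treatment of multiply mapped reads and of strand is not given there. Both tables hold the same wake values, which allowed all 9 libraries to be joined. Depth was inferred from the most common product of FPKM and transcript length in genes with 1 transcript, taken as 1 fragment. Only products within a range set in advance were used, which bounds the estimate. No read totals are used here.

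FPKM were summed by gene symbol. The sums, as log2(FPKM + 1), went into limma 3.58.1 under R 4.3.3 (eBayes with intensity trend, 2-sided), for genes with a mean of at least 0.5 FPKM in the libraries compared, with Benjamini-Hochberg adjustment over all genes and a threshold of 0.05. Wake against sleep and Fxr1 against control used their own 6 libraries, Fxr1 against sleep all 9. With 3 against 3 an exact permutation test cannot go below 0.1. Differences on this scale understate changes of genes with low FPKM. The GC and length trend was removed per library with splines of 5 degrees of freedom, fitted over protein-coding genes of at least 1 FPKM. On simulated data 61% to 78% of changes of 1 on the log2 scale were recovered, and 12% to 36% of changes of 0.5. The simulated noise was independent between genes, with a spread averaged over all groups and no GC trend, and the changed genes were not among the lowest. It lacked the wider spread of the Fxr1 libraries, so recovery in the Fxr1 comparisons cannot be read from it. Positions and sequences are from GENCODE for GRCm38 and, for promoters, RefSeq; 99.1% of gene identifiers matched.

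Named genes are every histone gene that passed, the 4 most abundant of each class, up to 4 genes of each list with the smallest p, and other histone genes by level. H3f3a, H3f3b, H2afz and Slbp were named after their values were seen. The members and lists were chosen with earlier results of these data known. Alternatives were pseudocount, filter, scaling, trend removal, copies summed, transcripts, replicate block and leaving out each library. The trend of GC alone, and trend removal without Fxr1 library 1, were added after seeing the data.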

Additional observations from a re-analysis of the deposited data

How the results depend on the processing

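For wake against sleep (44 called), the count was 28 with a filter of a mean of 2 FPKM, 28 with the GC and length trend removed, 11 with near-identical copies summed, 22 for transcripts in place of genes, and 33 to 42 with 1 library left out. Fewer features were tested under the stricter filter and the summed copies. With the trend removed, Hist1h2al (-0.19), Hist1h2bl (-0.15), Hist2h2ac (-0.23) and Hist2h3b (-0.19) changed sign; with GC alone removed, Hist2h2ac (-0.13) and Hist2h3b (-0.062) did. For Fxr1 against control (7 called), the count was 1 with a pseudocount of 0.1, 0 without a filter, 2 with a filter of a mean of 2 FPKM, 11 with quantile normalization, 4 with the trend removed, 1 with copies summed and 2 for transcripts. It was 0 without any 1 wake library or without Fxr1 library 2, 7 without Fxr1 library 3 and 47 without Fxr1 library 1, a range of 0 to 47, and 19 without that library and with the trend removed. Hist1h3b turned to 0.062 with the trend removed, with the replicate block too. For Fxr1 against sleep (8 called), the count was 2 without a filter, 4 with a filter of 2 FPKM, 4 with copies summed, 0 for transcripts, and 0 to 12 with 1 library left out. Apart from the features and libraries removed by construction, the cause was not tested.

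Whether the shared replicate numbers pair the libraries is not given. Same-numbered libraries had correlations of deviations from the group means between -0.25 and 0.17, and differently numbered ones between -0.38 and 0.43. Deviations from a mean of 3 libraries depend on each other, so these values cannot settle the pairing. With a replicate block the counts were 39, 0 and 3, and with block and trend removal 27, 0 and 6 in the order above; the genes that changed sign had the same values as with trend removal alone.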
